A study of Mus musculus with 96 samples.

Results

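H3K4me3 peaks that lay under RING1B and outside H3K27ac were described in mouse embryonic stem cells (ESCs). A member of the set was an H3K4me3 interval of the Rybp+/+ peak list that overlapped at least 1 bp of a RING1B interval from shEV cells and no H3K27ac interval of the Rybp+/+ list, so members were chosen by measured peaks of these 3 lists. The rule kept 6762 of 39050 H3K4me3 intervals (17.3%). The remaining intervals formed 3 classes, which were 7384 with both RING1B and H3K27ac, 13152 with H3K27ac alone and 11752 with neither. An annotated transcription start site (TSS) of 3655 genes lay inside a member interval, and these are called member genes.

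RING1B is the E3 ligase at the core of Polycomb repressive complex 1 (PRC1), which ubiquitinates histone H2A and compacts chromatin at silent developmental genes. RYBP is a subunit of non-canonical forms of PRC1 that stimulates this ligase. H3K4me3 is placed at start sites by COMPASS complexes that hold WDR5, and H3K27ac marks active promoters and enhancers. In ESCs, CpG-rich promoters of lineage genes carry H3K4me3 together with Polycomb marks and are called bivalent. H3K27me3, the mark of PRC2 by which bivalent domains are usually defined, was not analysed here, so the set is called by its rule.

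The histone marks, WDR5 and STAT3 were profiled in R7.15 ESCs (RYBPfl/fl Rosa26::CreERT2), either left floxed (Rybp+/+) or deleted by 4-hydroxytamoxifen (4-OHT) at 5 µM for 4 days (Rybp-/-), so that deletion and drug exposure cannot be told apart. RING1B came from R1 ESCs with a control hairpin (shEV), and therefore the rule joined marks from a pair of cell lines. RING1B was also profiled in R1 cells with a Stat3 hairpin (shStat3) and, with STAT3, in R1 cells carrying a doxycycline (DOX)-induced Rybp and Stat3 integration, with (DOX+) and without (DOX-) the drug. RNA-seq compared 7 pairs of groups with 2 libraries each. These were Rybp-/- with Rybp+/+ (knockout), shRybp with shEV and shWdr5 with shEV in R1 (knockdowns), a TF-AA mutation with WT ESCs in R1, and RYBP phase disruption (a RYBP.21aa deletion transgene) with WT RYBP overexpression, both in the R7.15 background under 4-OHT. The other 2 were Tet.RYBP J1 cells with DOX against vehicle, and rTRS cells, labelled as the DOX-induced Rybp and Stat3 line, with DOX against the NTC control. The labels name the lines but not separate clones or cultures, so p-values measure the spread between libraries, which may be technical.

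Each group had a single peak list, so no difference between peak lists could be tested over samples. The RING1B lists of shEV and shStat3 cells and the STAT3 lists of Rybp+/+ and Rybp-/- cells came from 1 library each, and in the other lists replicates had been merged. The RNA libraries held 14512857 to 81049618 gene counts. ESC markers summed to between 3866 and 8556 CPM (counts scaled to library size) in each library. Rybp fell from 110 and 110 CPM to 24.8 and 25.0 in Rybp-/- and from 85.7 and 86.4 to 35.8 and 36.6 in shRybp. Wdr5 fell from 350 and 343 to 60.05 and 58.2 CPM in shWdr5. Rybp rose from 135 and 145 to 522 and 535 CPM after Tet.RYBP DOX. In the rTRS pair, Rybp was at 113 and 110 CPM without and 102 and 99.8 with DOX, which edgeR did not call (adjusted p = 0.0762), and which a fit with the replicate number as a block called as a fall (log2 fold change -0.15). The labelled induction of Rybp was thus not visible. Stat3 was at 159 and 172 CPM without and 191 and 188 with DOX (log2 fold change 0.20, edgeR adjusted p = 0.0259). Its call was lost without NTC replicate 1 (0.14), DOX replicate 1 (0.185) or DOX replicate 2 (0.21). The group is called the libraries labelled rTRS DOX.

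To show what such intervals look like, sequences at H3K4me3 summits were taken from the mouse genome build mm9, plus strand, with each CG dinucleotide in capitals. CpG-rich DNA is the substrate on which both PRC1 and COMPASS are recruited. The first 3 come from members with a protein-coding TSS and very high RING1B fold enrichment (pileup over control, from the peak caller). Those are Pcdh7 (a protocadherin) at chr5:58106459-58106758 with 17 CG, Nkx1-1 (a homeobox factor) at chr5:33776837-33777136 with 35 CG, and Egr4 (an early growth response zinc finger factor) at chr6:85461888-85462187 with 42 CG. The Pcdh7 and Nkx1-1 windows held no annotated exon, and the Egr4 window was coding exon throughout. The last 2 come from members with no H3K4me3 peak in Rybp-/-, namely 118 bases beside the summit near Tm6sf1 at chr7:89008140-89008257 with 3 CG, the part of its window outside untranslated exon, and 300 bases near Gm6054 at chr5:148220227-148220526 with 16 CG. Neither printed stretch held annotated exon.
Pcdh7: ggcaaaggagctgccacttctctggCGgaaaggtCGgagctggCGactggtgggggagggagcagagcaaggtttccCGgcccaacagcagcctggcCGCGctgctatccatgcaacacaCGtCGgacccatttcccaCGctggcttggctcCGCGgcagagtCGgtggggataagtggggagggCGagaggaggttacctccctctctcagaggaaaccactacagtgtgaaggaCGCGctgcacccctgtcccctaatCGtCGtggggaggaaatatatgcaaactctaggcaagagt
Nkx1-1: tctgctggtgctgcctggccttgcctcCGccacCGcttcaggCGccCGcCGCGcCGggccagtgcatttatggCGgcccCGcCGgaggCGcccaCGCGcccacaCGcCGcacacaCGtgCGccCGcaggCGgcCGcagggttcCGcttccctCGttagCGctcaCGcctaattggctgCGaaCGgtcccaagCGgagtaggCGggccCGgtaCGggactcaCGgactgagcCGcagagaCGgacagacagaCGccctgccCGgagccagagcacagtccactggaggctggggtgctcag
Egr4: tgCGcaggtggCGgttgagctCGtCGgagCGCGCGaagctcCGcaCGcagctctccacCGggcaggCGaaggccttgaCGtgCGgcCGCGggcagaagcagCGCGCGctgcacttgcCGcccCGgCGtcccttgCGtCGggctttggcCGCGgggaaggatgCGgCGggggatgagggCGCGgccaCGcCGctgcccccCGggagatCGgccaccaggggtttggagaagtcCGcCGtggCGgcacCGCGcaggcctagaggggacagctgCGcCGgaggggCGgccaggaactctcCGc
Near Tm6sf1: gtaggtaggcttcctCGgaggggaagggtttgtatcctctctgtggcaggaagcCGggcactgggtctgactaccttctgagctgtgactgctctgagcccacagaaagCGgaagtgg
Near Gm6054: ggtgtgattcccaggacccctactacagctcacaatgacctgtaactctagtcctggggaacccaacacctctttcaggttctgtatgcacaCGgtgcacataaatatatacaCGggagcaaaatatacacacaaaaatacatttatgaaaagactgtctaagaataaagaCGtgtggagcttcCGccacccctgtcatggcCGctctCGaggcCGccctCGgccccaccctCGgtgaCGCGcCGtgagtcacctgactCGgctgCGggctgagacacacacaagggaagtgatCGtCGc

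The 3 windows from members with high RING1B differed in CG number by more than 2 times between Pcdh7 and Egr4, so a high RING1B enrichment was seen over windows of quite different CpG content.

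Members were intermediate in size. Their median width was 1511.5 bp (range 243 to 9023), against 2703.5 bp for peaks with RING1B and H3K27ac, 999 bp for H3K27ac alone and 481 bp for neither. The median H3K4me3 fold enrichment followed the same order, at 14.4 in members and 37.7, 6.15 and 4.56 in the other classes. RING1B fold enrichment, which helped to choose the members, had a median of 9.36 (quartiles 4.63 and 26.0), and 4.28 where H3K27ac was present as well. The smallest RING1B overlap of a member was 5 bp, while the nearest interval outside the set with no H3K27ac lay 5 bp away from RING1B. The nearest H3K27ac interval was 40 bp from a member, and the smallest H3K27ac overlap that removed an interval was 26 bp.

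A TSS lay in 3471 members (51.3%), against 85.3% of peaks with RING1B and H3K27ac, 32.0% of those with H3K27ac alone and 9.41% of those with neither. Another 2496 members (36.9%) were more than 2.5 kb from any TSS. Of the member genes, 3150 were protein coding, 222 were lincRNAs and 42 were miRNAs. Members fell in 5942 of 14408 RING1B intervals, and 489 of these held 2 or more. The RING1B interval at chr11:96130404-96216798 held 20 members, and it spans the starts of Hoxb2 to Hoxb9, homeodomain factors that set position along the body axis.

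Among members, the CpG density had a median of 4.12 per 100 bp. It was 4.01 in peaks with RING1B and H3K27ac, 2.23 with H3K27ac alone and 2.86 with neither. By other measures of CpG content members were below the class with RING1B and H3K27ac, with a median of 20 CG in the 300 bp summit window against 29, and an observed to expected ratio of 0.534 against 0.572. Members also had the highest GC content of the 4 classes by median, at 56.8% against 54.0%, 50.8% and 54.0%. Members with a TSS held 4.59 CpG per 100 bp and members without one held 3.70, both above the median of all H3K4me3 peaks (3.06). Thus CpG density was high in members both at and away from annotated starts.

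The 5 members with the highest RING1B fold were Pcdh7 at chr5:58105721-58111558 (91.4), Nkx1-1 at chr5:33772688-33778354 (83.4), Adra2a at chr19:54119003-54123072 (82.8), the interval of Tril and Gm16499 at chr6:53767374-53771712 (82.6) and Egr4 at chr6:85461241-85464245 (80.8). Adra2a encodes an alpha-2 adrenergic receptor and Tril a modulator of Toll-like receptor signalling. All 5 kept an H3K4me3 peak in Rybp-/- and had RING1B in the shStat3, DOX- and DOX+ lists, and lacked H3K27ac in Rybp-/-. RNA from these genes was low. In Rybp+/+ libraries Pcdh7 was at 2.99 and 3.09 CPM and Nkx1-1 at 0 and 0.037, and in Rybp-/- they were at 9.23 and 8.81, and 0.053 and 0.17. The groups did not overlap for either gene, although Nkx1-1 was close to zero throughout. In shEV cells Pcdh7 was at 0 in both libraries and Nkx1-1 at 0.809 and 1.28 CPM.

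The longest members included those of Skor1 at chr9:62989475-62998497 (9023 bp), Dlx2 (8859 bp), Bcl11a (8646 bp) and chr15:76006560-76014955 (8396 bp, 3518 bp from a start of Plec). Skor1 is a neural corepressor, Dlx2 a forebrain homeobox factor and Bcl11a a zinc finger repressor of fetal globin genes. RING1B reached a fold of 55.9 at Skor1 and 13.4 at the interval near Plec. These 4 intervals lacked H3K27ac in Rybp-/-.

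Whether RYBP loss removed H3K4me3 from these intervals was asked next. An Rybp-/- H3K4me3 peak overlapped 6601 of 6762 members (97.6%, 95% Wilson interval 97.2 to 98.0), against 85.5% of all Rybp+/+ H3K4me3 peaks. The share was 99.5% with RING1B and H3K27ac, 79.6% with H3K27ac alone and 76.3% with neither. The members' share was 18.1 points above that of the H3K27ac class (95% Newcombe interval 17.3 to 18.8). Such intervals cover counting error only, since a single list represents each group. Retention depended on peak strength, so peaks were divided into quintiles by their Rybp+/+ fold enrichment. In the weakest quintile (fold 1.62 to 3.87), 121 of 515 members (23.5%, 20.0 to 27.3) had no Rybp-/- peak, against 28.0%, 57.1% and 46.5% in the other classes. In the second quintile the shares were 5.65%, 8.72%, 26.1% and 21.2%. Only 3 members above that were without a peak, and no member in the upper 2 quintiles was. In the weakest and the second quintile, members kept the peak more often than H3K4me3 peaks without RING1B, and their interval overlapped that of peaks with RING1B and H3K27ac.

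**Figure D1:**
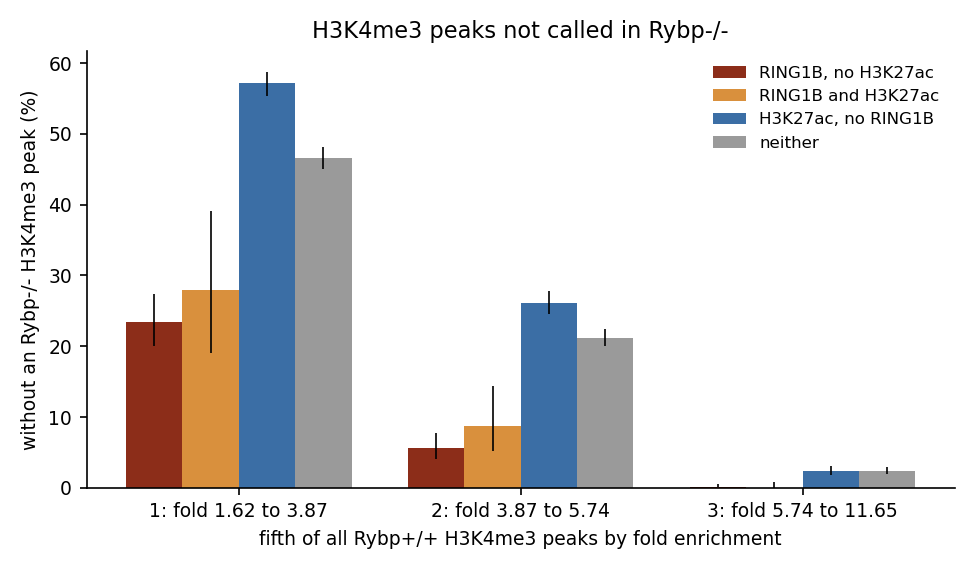
Share of Rybp+/+ H3K4me3 peaks with no overlapping Rybp-/- H3K4me3 peak (y axis, percent) in the 3 weakest quintiles of fold enrichment (x axis), for the 4 classes. Bars are shares and lines are 95% Wilson intervals. In the weakest quintile the members stand at 23.5% and the class with H3K27ac alone at 57.1%.

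The 161 members without a Rybp-/- peak were small and weak. Their median width was 339 bp, their median H3K4me3 fold 3.51 (6.16 at most) and their median CpG density 2.48 per 100 bp. A TSS lay in 7 of them (4.35%), against 52.5% of the members that kept a peak. Their median RING1B fold was 6.11, and 9.46 in those that kept it. The strongest was chr7:89007649-89008545, at 76 bp from a start of Tm6sf1, whose sequence is printed above. The next were chr1:63307745-63308141 and chr5:148220179-148220510 (fold 5.88 each), chr3:122332164-122332643 (5.34) and chr7:36472370-36473296 (4.94). The intervals near Tm6sf1 and Gm6054 had H3K27ac in Rybp-/-, and the other 3 had not. These 5 contained no TSS.

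The strength of retained peaks was compared by its percentile within each list, since the lists differ in scale. Of 6601 members with a peak in both lists, 40.6% had a lower percentile in Rybp-/-, and the median difference was +1.72 points. The share with a lower percentile was 53.6% with RING1B and H3K27ac, 62.8% with H3K27ac alone and 49.9% with neither. A rank within a list is relative, and an absolute change in H3K4me3 cannot be read from it.

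WDR5, the COMPASS and TrxG subunit, was less common at members than at peaks with RING1B and H3K27ac. A Rybp+/+ WDR5 peak overlapped 1493 members (22.1%, 21.1 to 23.1), close to the 27.2% of all H3K4me3 peaks. The share was 79.05% with RING1B and H3K27ac, 23.7% with H3K27ac alone and 1.39% with neither. In Rybp-/- the share was 26.6% of members (25.6 to 27.7), against 29.3% of all H3K4me3 peaks. A total of 1218 members had WDR5 in both lists, 581 in Rybp-/- alone and 275 in Rybp+/+ alone. Where a peak had to cover 50% of the interval, the shares were 1.09% in Rybp+/+ and 2.17% in Rybp-/-. The whole WDR5 list also grew, from 11965 to 12946 peaks. Members with WDR5 in Rybp+/+ held 5.37 CpG per 100 bp, and those without it 3.85.

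By the rule, no member had H3K27ac in Rybp+/+, so only a gain could be seen. An Rybp-/- H3K27ac peak overlapped 1022 members (15.1%, 14.3 to 16.0), against 55.4% of all H3K4me3 peaks, most of which carried the mark from the start. In the class with neither RING1B nor H3K27ac, which had no H3K27ac to begin with, the share was 11.7%, which is 3.41 points lower (2.38 to 4.45). Those intervals were narrower (median 481 bp, against 1511.5 bp), and the part of width in this difference was not tested. The members' share was 9.75% with stricter peaks and 1.67% where a peak had to cover 50% of the interval. The gained peaks had a median fold of 3.50, against 3.86 for the whole Rybp-/- list. Among members, gain was rarest where RING1B was strongest, at 8.87% of the top RING1B quintile and 18.6% of the bottom one.

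RING1B itself was compared across the 3 lists that the rule did not use. An shStat3 RING1B peak overlapped 5636 members (83.3%, 82.4 to 84.2), against 31.5% of all H3K4me3 peaks and 75.5% of those with RING1B and H3K27ac. At DOX-, 6142 members (90.8%) had RING1B, against 42.1% of all H3K4me3 peaks and 92.3% of those with RING1B and H3K27ac. At DOX+, the number was 5901 (87.3%), against 33.1% and 75.1%. Since the members were chosen for RING1B in shEV cells of the same R1 line, these shares are not independent of the choice. Both DOX lists covered 5781 members (85.5%), DOX- alone 361 and DOX+ alone 120. The DOX- list was also longer (17021 intervals, against 12864). All 4 RING1B lists held 5381 members (79.6%), whose median shEV fold was 13.9. The 428 members found in the shEV list alone had a median fold of 3.78.

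STAT3, the effector of LIF signalling in ESCs, overlapped 608 members (8.99%) in Rybp+/+ and 457 (6.76%) in Rybp-/-, against 4.84% and 3.94% of all H3K4me3 peaks. At DOX-, it overlapped 394 members (5.83%, 5.29 to 6.41), close to the 5.09% of all H3K4me3 peaks, and 2.64% with stricter peaks or 0.0538% at 50% of the interval. At DOX+, it overlapped 5721 members (84.6%, 83.7 to 85.4), against 48% of all H3K4me3 peaks, 93.4% with RING1B and H3K27ac, 29.4% with H3K27ac alone and 19.2% with neither. Of the 394 members with STAT3 at DOX-, 390 had it at DOX+ as well. The STAT3 list itself went from 2816 to 30663 peaks, and how much of this came from read depth or enrichment was not tested. RING1B at DOX+ was called at 91.9% of members with DOX+ STAT3 and 61.7% of those without.

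The consensus STAT motif TTCCNGGAA, a palindrome searched as letters in the 300 bp around the H3K4me3 summit, was in 57 members (0.843%). It was in 0.871% of all H3K4me3 peaks. Members with and without STAT3 at DOX+ held it in 0.856% and 0.768% (49 and 8 intervals). The absence of these letters from a window says nothing of the factor.

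**Figure D2:**
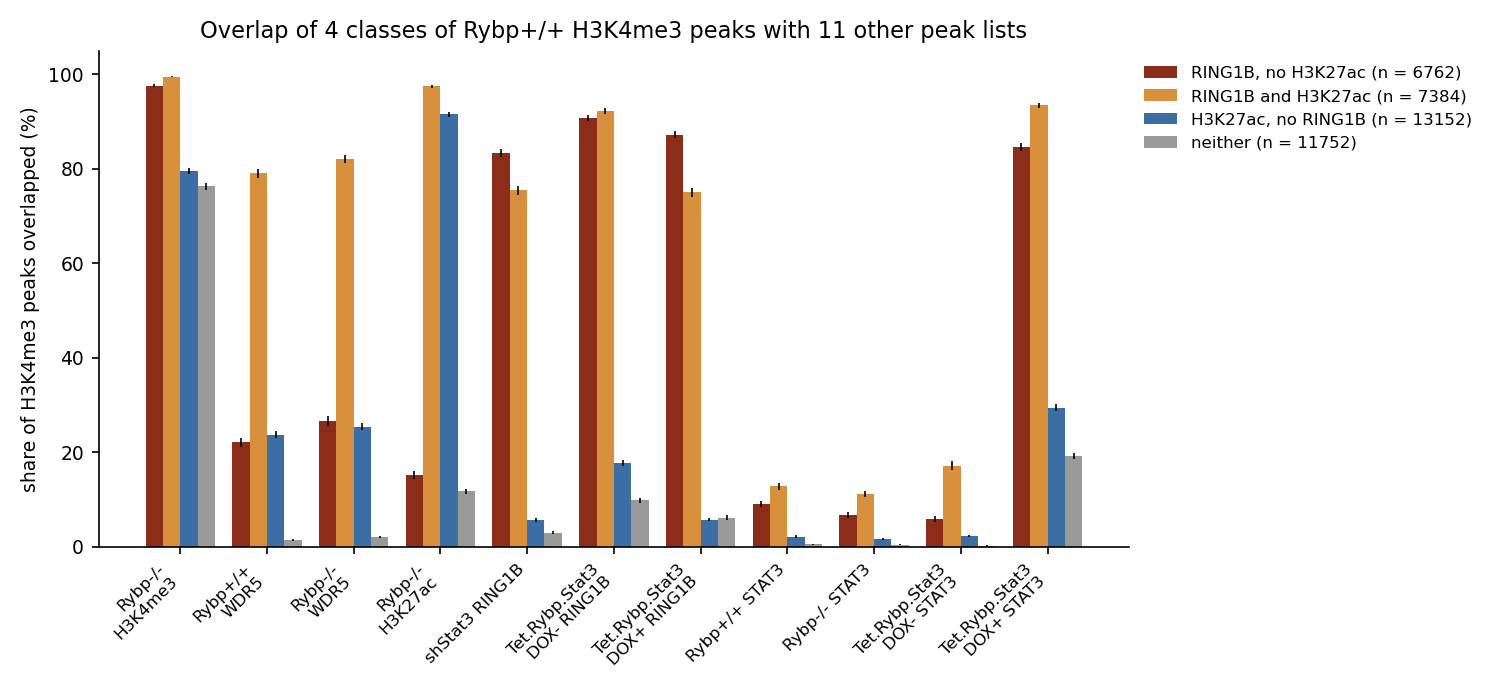
Share of Rybp+/+ H3K4me3 peaks overlapped by at least 1 bp (y axis, percent) for 11 other peak lists (x axis) and 4 classes of peaks. Bars are shares and black lines are 95% Wilson intervals. Members resemble the class with RING1B and H3K27ac in H3K4me3 retention and stand far below it in WDR5. Both classes were chosen for RING1B, and the rule removed Rybp+/+ H3K27ac from members alone. Their RING1B shares and their gap in Rybp-/- H3K27ac (15.1% against 97.5%) are thus not independent of the choice. In the class with neither, also chosen without H3K27ac, the Rybp-/- H3K27ac share was 11.7%.

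Members were then split into quintiles by RING1B fold, with medians from 3.66 to 43.0. The share with a TSS went from 31.1% in the lowest quintile to 64.6% in the fourth and 57.9% in the highest. CpG density rose in each step, from 3.30 to 5.13 per 100 bp. WDR5 in Rybp+/+ went from 7.83% to 34.6%, and in Rybp-/- from 10.4% to 36.7%. RING1B after shStat3 went from 44.3% to 99.7%, and at DOX+ from 55.4% to 99.9%. STAT3 at DOX+ went from 69.3% to 91.0%. The members with the most RING1B were thus also those with the most CpG, the most WDR5 and RING1B most often in the other lists. They were also wider, with medians from 1025 bp in the lowest to 2253 bp in the highest quintile, and had a higher H3K4me3 fold (7.36 and 20.4). Their part in these shares, which count any overlap of 1 bp, was not tested.

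**Figure D3:**
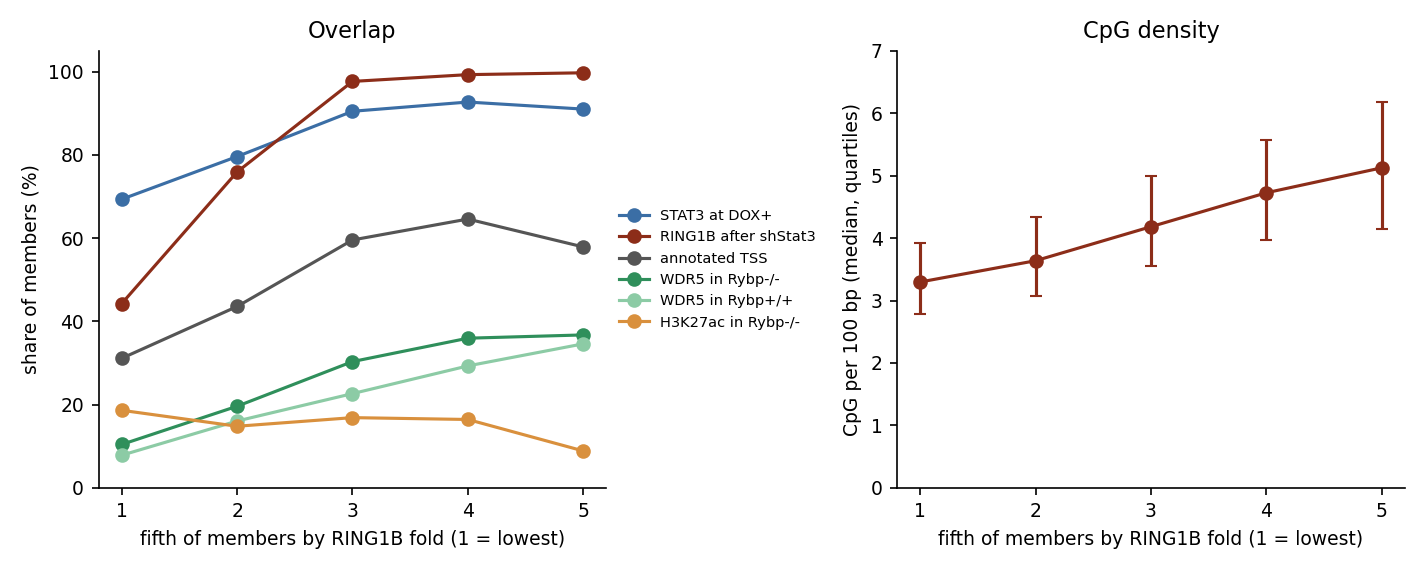
Left, share of members (y axis, percent) with each feature by quintile of shEV RING1B fold enrichment (x axis, 1 lowest, 5 highest). Right, CpG per 100 bp as the median with quartiles. CpG density climbs from 3.30 to 5.13, while H3K27ac in Rybp-/- is lowest in the highest quintile (8.87%).

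RNA from member genes was low. Per length, the protein-coding member genes had a median of 0.189 RPKM (CPM per kilobase of gene length) in the Rybp+/+ libraries, and 22.2% reached 1 RPKM. The medians were 7.46 in genes with RING1B and H3K27ac, 10.2 with H3K27ac alone and 0.48 with neither. The median fell along the RING1B quintiles from 0.384 to 0.0633 RPKM. In bulk RNA, fewer expressing cells and less RNA per cell cannot be told apart.

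Member genes were next counted in each RNA comparison, where a gene was called at an adjusted p below 0.05 in edgeR's quasi-likelihood test over all genes. Of the 3655 member genes, 3654 were in the count tables. After Rybp knockout, 2553 of these 3654 passed the count filter and 1101 did not, and 280 of the latter had no count at all. Higher RNA was called for 936 (36.7% of those tested), against 22.8% of all genes tested, and lower RNA for 285 (11.2%), against 22.7%. The median log2 fold change was 0.35 over member genes and 0.00 over all genes. Some genes passed the filter through the Rybp-/- libraries alone (255) or the Rybp+/+ libraries alone (54). Among the 2183 that passed in both groups, 37.6% were higher and 12.5% lower. At a mean of 1 to 10 CPM, 45.2% of member genes and 21.8% of other genes were higher, and 11.3% and 17.2% lower. At 10 to 100 CPM, 41.0% and 22.0% were higher and 31.4% and 34.8% lower, so the gap in lower calls was smaller between genes of like level.

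After Rybp knockdown, 1269 of 2557 member genes tested were higher (49.6%), against 26.8% of all genes, and 170 were lower (6.65%), against 26%. Of all genes tested, 52.7% were called in either direction, and 45.5% in the knockout. The median log2 fold change was 0.66. At 1 to 10 CPM, 56.3% of member genes and 30.2% of others were higher, and 5.18% and 10.7% lower. Among the 2088 that passed the filter in both groups, 1043 were higher and 165 lower. The knockout and the knockdown used different cell lines and no common library. Of 2347 member genes tested in both, 572 were higher in both, which is 65.1% of the 879 higher after knockout and 48.3% of the 1185 higher after knockdown. Of all 2347, 50.5% were higher and 7.12% lower after knockdown. Lower RNA in both was called for 58 genes, 21.1% of the 275 lower after knockout and 34.7% of the 167 lower after knockdown. Of the 275, 92 (33.5%) were higher after knockdown, and of the 879, 40 (4.55%) were lower, both below the shares over all 2347.

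Other cell types were followed through marker lists. The summed RNA of 8 feeder-fibroblast markers was 199 and 202 CPM in Rybp+/+ and 348 and 348 in Rybp-/-, with 7 of 8 higher. In the knockdown, the same sum was 145 and 145 in shEV and 115 and 116 in shRybp, with 3 of 4 tested higher and 1 lower and with Lum and Dcn at 0. The 5 annotated two-cell-like markers summed to 0.202 and 0.173 CPM in Rybp+/+ and 48.3 and 47.5 in Rybp-/-, and to 41.0 and 38.4 in shEV and 194 and 184 in shRybp. These 5 are not member genes. Primitive endoderm markers, 6 of 8 of which are member genes, went from 215 and 210 to 330.02 and 331 CPM in the knockout (6 of 8 higher) and from 243 and 229 to 672 and 704 in the knockdown (7 of 8 higher). Trophectoderm markers, 2 of which are member genes, went from 62.2 and 65.7 to 85.2 and 89.9 CPM in the knockout (6 of 7 higher) and from 53.2 and 58.2 to 214 and 234 in the knockdown (5 of 7 higher, 1 lower). The part of such cells in the results was not tested.

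**Figure D4:**
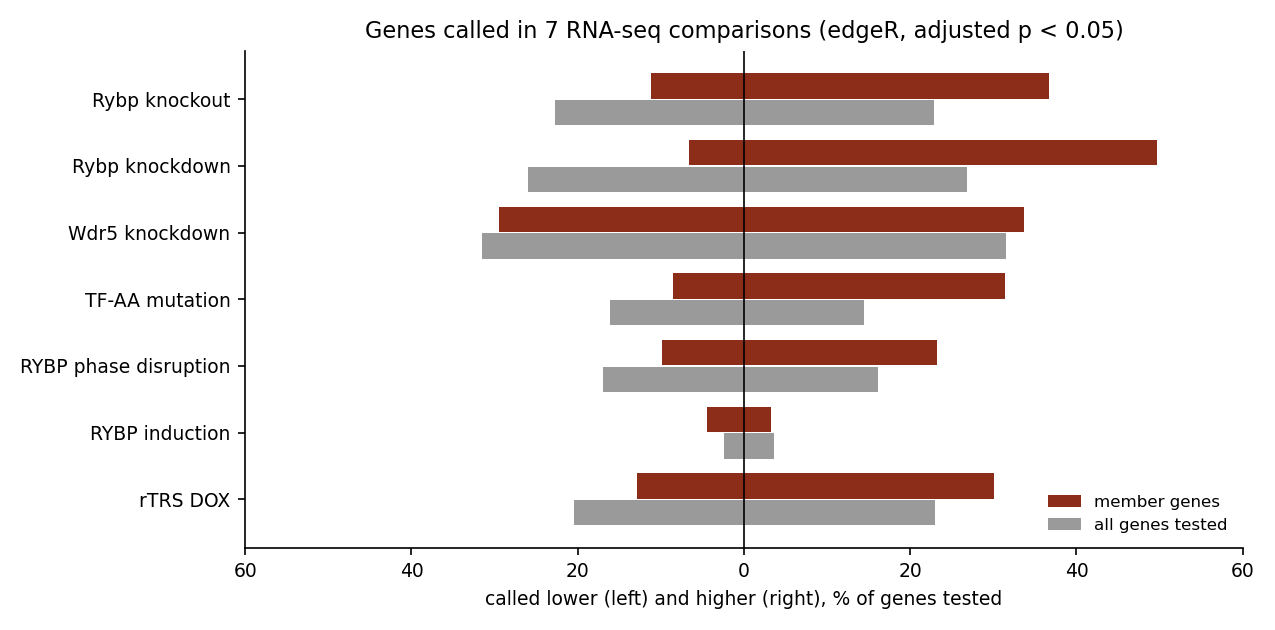
Share of genes tested that edgeR called lower (left of 0) and higher (right of 0) in 7 comparisons (y axis), for member genes and for all genes tested (x axis, percent, adjusted p below 0.05). Member genes were called higher more often than lower in 6 comparisons, the widest gap being 49.6% and 6.65% after Rybp knockdown.

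Most genes of several families of developmental transcription factors were members, namely 36 of 39 Hox genes, 76 of 90 other homeobox genes, 18 of 22 Fox genes, 10 of 12 Sox genes other than Sox2, 13 of 19 T-box and Gata genes and 28 of 42 bHLH genes. By contrast, 2 of 23 pluripotency genes (Esrrb and Prdm14), 1 of 20 housekeeping genes (B2m) and 0 of 9 Trithorax and COMPASS genes were members. Of 30 Polycomb genes, 5 were members, among them Bcor and Bmi1.

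Hox RNA was close to the detection limit. Here and below, falls are counted for each gene family named, wherever edgeR called any. Each family is counted over the member genes that reached the count filter in all 4 libraries of the comparison. Beyond Rybp knockout and knockdown, only some families are named. No fold or test is given for a gene below the filter in any of these libraries. Each count is a description to be read against the share that rose among all member genes that passed in both groups (37.6% after knockout, 1043 of 2088 after knockdown). After knockout, 3 of 6 such Hox member genes rose, with a median log2 fold change of 0.59, and after knockdown 4 of 12 (median 0.49). The starts of Hoxd9 and Hoxd10 lay under RING1B of the same fold (50.1). Hoxd10 was at 0.0382 and 0 CPM in Rybp+/+ and 0.263 and 0.286 in Rybp-/-, and passed the filter through Rybp-/- alone. Hoxa3 was listed at 0 in every library of both comparisons. Other homeobox member genes rose in 5 of 29 and fell in 6 after knockout, and rose in 18 of 40 and fell in 6 after knockdown.

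Among forkhead member genes, 2 of 8 rose and 1 fell after knockout (median log2 fold change 0.62), and 6 of 10 rose after knockdown (1.24). Foxl2, a factor of the ovary and eyelid at chr9:98854513-98858303, was at 0.86 and 0.68 CPM in shEV and 3.73 and 3.39 in shRybp. Its log2 fold change was 2.20 (SE 0.28, edgeR adjusted p = 2.39e-06). Foxc1, a mesoderm factor, went from 0.229 and 0.149 to 0.631 and 0.468 CPM after knockout and from 0.228 and 0.435 to 0.942 and 1.16 after knockdown. The knockout log2 fold change was 1.53 (SE 0.55, edgeR adjusted p = 0.0228), and the call was lost without Rybp+/+ replicate 2 (1.25) or Rybp-/- replicate 1 (1.30).

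Of the Sox member genes, 3 of 8 rose and 1 fell after knockout (median 0.58), and 4 of 6 rose and 1 fell after knockdown (1.29). Sox18, an endothelial factor, went from 1.06 and 1.3 to 4.89 and 4.3 CPM after knockdown (log2 fold change 1.96, SE 0.24, edgeR adjusted p = 1.42e-06), and was not called after knockout (edgeR adjusted p = 0.158). Sox9, a cartilage and testis factor, went from 1.88 and 1.79 to 2.88 and 3.03 CPM after knockout (0.69, SE 0.19, edgeR adjusted p = 0.00332), and was at 0.202 and 0.326 CPM in shEV and 0.797 and 0.49 in shRybp. Sox3, a neural progenitor factor, fell from 3.50 and 3.47 to 2.67 and 2.21 CPM after knockout (-0.51, SE 0.17, edgeR adjusted p = 0.0142), a call lost without Rybp-/- replicate 2 (-0.39), and was not called after knockdown (0.18, SE 0.11, edgeR adjusted p = 0.185). Sox14 stayed below 0.2 CPM in all 8 libraries. Of the T-box and Gata member genes, 4 of 11 rose after knockout (median 0.60) and 8 of 11 after knockdown (1.19). Tbx4, a hindlimb factor, rose from 3.51 and 4.32 to 8.44 and 9.45 CPM after knockdown (1.19, SE 0.16, edgeR adjusted p = 4.13e-06).

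For bHLH member genes, 4 of 14 rose after knockout (median -0.20), and 7 of 11 after knockdown (1.11). Twist1, a mesenchymal factor at chr12:34641379-34644359, was at 2.33 and 2.09 CPM in Rybp+/+, 4.27 and 3.88 in Rybp-/-, 9.61 and 8.89 in shEV and 20.5 and 19.3 in shRybp. The groups did not overlap in either comparison, and the log2 fold changes were 0.88 (SE 0.17) and 1.11 (SE 0.10), with edgeR adjusted p of 4.85e-05 and 4.77e-08. Hand1, a factor of trophoblast and heart at chr11:57640459-57647712, went from 1.09 and 0.571 to 9.1 and 9.16 CPM after knockdown (3.44, SE 0.23, edgeR adjusted p = 4.54e-10). After knockout it went from 2.28 and 1.78 to 2.97 and 3.18 CPM (0.60, SE 0.19, edgeR adjusted p = 0.0088), a call that was lost without Rybp+/+ replicate 2 (0.43) or Rybp-/- replicate 2 (0.55). Of the zinc finger and nuclear receptor group, 7 of 15 rose and 1 fell after knockout, and 5 of 15 rose and 3 fell after knockdown. Sall3, a spalt-like factor, was one that fell after knockdown, from 54.1 and 59.5 to 32.4 and 33.7 CPM (-0.78, SE 0.07, edgeR adjusted p = 2.63e-08).

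Secreted signals were counted in the same way. Of 19 Wnt ligands, 15 were member genes, of which 3 of 6 rose after knockout and 3 of 6 after knockdown. Wnt3a, which maintains axial progenitors, lies at chr11:59101928-59105184. It was at 0.0636 and 0.373 CPM in Rybp+/+, 0.762 and 1.33 in Rybp-/-, 0.0506 and 0.109 in shEV and 1.07 and 1.45 in shRybp. The groups did not overlap in either comparison. Wnt7a, which patterns limb and neural tissue, went from 0.153 and 0.124 to 0.302 and 0.585 CPM after knockout and from 0.101 and 0.353 to 1.18 and 0.602 after knockdown. Of the BMP and TGF-beta group, 6 of 12 rose and 1 fell after knockout, and 8 of 10 rose after knockdown. Bmp2, a BMP ligand, went from 0.191 and 0.162 to 0.683 and 0.65 CPM after knockout and from 0.329 and 0.435 to 1.61 and 1.03 after knockdown (1.91, SE 0.52, and 1.79, SE 0.46, edgeR adjusted p = 0.00314 and 0.00289). The knockdown call was lost without shRybp replicate 1 (1.42). Grem1, a BMP antagonist abundant in fibroblasts, rose from 24.2 and 24.7 to 61.1 and 65.3 CPM after knockout (1.37, SE 0.05, edgeR adjusted p = 3.58e-20), beside the rise of the fibroblast markers given above, and stayed below 0.4 CPM in shEV and shRybp.

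Fgf ligands and the Hedgehog and Notch group gave other counts. Of the Fgf member genes, 3 of 8 fell after knockout, and 2 of 6 rose and 2 fell after knockdown. Of the Hedgehog and Notch genes, 2 of 6 fell after knockout and 3 of 5 rose after knockdown. Ptch1, the Hedgehog receptor, fell from 299 and 292 to 202 and 197 CPM after knockout (-0.57, SE 0.03, edgeR adjusted p = 8.87e-16). It rose from 43.2 and 45.9 to 60.8 and 68.1 CPM after knockdown (0.53, SE 0.07, edgeR adjusted p = 2.7e-06). Shh, a Hedgehog ligand, stayed below 0.2 CPM in all 8 libraries. Axon guidance and Eph genes rose in 11 of 16 after knockout and 11 of 14 after knockdown.

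Genes with other roles included both member CDK inhibitors. Cdkn1c, an imprinted inhibitor at chr7:150644553-150648063, rose from 25.3 and 25.8 to 45.8 and 43.8 CPM after knockout and from 27.0 and 25.9 to 59.8 and 60.8 after knockdown (0.81, SE 0.06, and 1.19, SE 0.07, edgeR adjusted p = 9.39e-14 and 5.49e-11). Cdkn2a, which encodes p16 and p19, rose in both (0.56, SE 0.08, and 0.80, SE 0.09). Bcor, a subunit of the PCGF1 form of PRC1, rose from 61.0 and 61.9 to 83.6 and 80.5 CPM after knockout and from 84.1 and 94.6 to 126 and 118 after knockdown (0.42, SE 0.04, and 0.45, SE 0.06, edgeR adjusted p = 1.14e-09 and 4.76e-06). B2m, the light chain of MHC class I, rose in both, by 1.05 (SE 0.06) and 1.18 (SE 0.11).

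**Figure D5:**
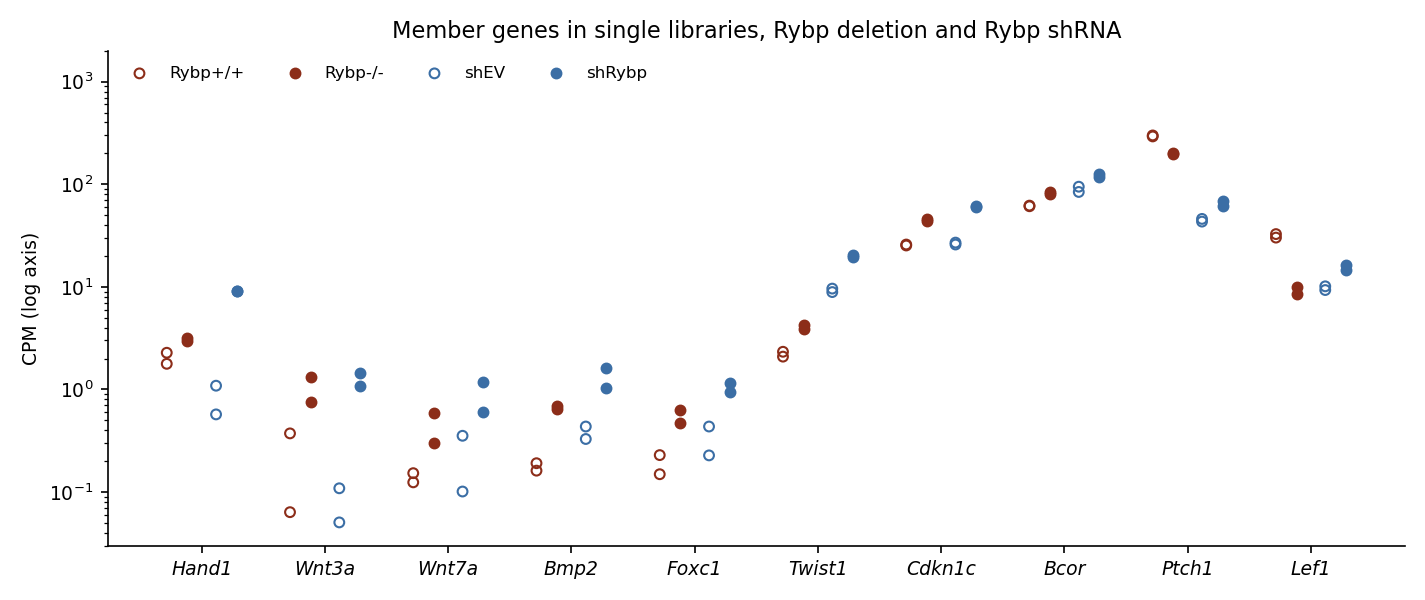
CPM on a log axis (y) of 10 member genes (x) in single libraries. Open circles are the 2 controls and filled circles the 2 depleted libraries, red for Rybp deletion in R7.15 and blue for Rybp shRNA in R1. The first 8 genes are higher in both, and Ptch1 and Lef1 move in opposite directions (-0.57 and 0.53 for Ptch1). The knockout calls of Foxc1 and Hand1 and the knockdown call of Bmp2 were lost without single libraries named in the text, and no fold is given for Wnt3a and Wnt7a or for Foxc1 in the knockdown, where a control library lay below the count filter.

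The largest rises after knockout among member genes with a mean of at least 1 CPM included those of Tmem132c, Sycp1, Trpa1 and Spata22. Sycp1, the meiotic synaptonemal complex protein, went from 0.954 and 0.708 to 6.18 and 6.69 CPM (2.95, SE 0.18, edgeR adjusted p = 5.29e-15). Spata22, also meiotic, rose by 2.38 (SE 0.29). The largest falls were those of Ankrd34a, Tmem154, Cdk5r2, Lef1 and Egr4. Lef1, a nuclear effector of Wnt signalling at chr3:130812322-130816623, went from 32.7 and 30.2 to 8.57 and 10.0 CPM (-1.75, SE 0.08, edgeR adjusted p = 1.05e-18). Egr4, whose summit sequence is printed above, went from 1.18 and 1.91 to 0.342 and 0.585 CPM (-1.74, SE 0.34, edgeR adjusted p = 7.71e-05).

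After knockdown the largest rises included those of Csf1, Wnt4, Loxl4 and AI836003. Wnt4, a ligand of kidney and gonad development at chr4:136832136-136835031, went from 0.278 and 0.217 to 8.24 and 7.53 CPM. Loxl4, a lysyl oxidase, went from 0.556 and 0.326 to 11.5 and 12.9 CPM (4.77, SE 0.22, edgeR adjusted p = 3.39e-12). The largest falls were those of Proc, Ankrd34a, Skor1, Tmem132d and Vax2. Skor1, the longest member interval, went from 4.15 and 5.00 to 0.906 and 1.03 CPM (-2.24, SE 0.25, edgeR adjusted p = 6.06e-07).

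Ankrd34a at chr3:96399560-96403294 was among the 5 largest falls in 4 comparisons. It was at 2.63 and 2.65 CPM in Rybp+/+ and 0.775 and 0.481 in Rybp-/- (-2.07, SE 0.26, edgeR adjusted p = 4.94e-08). It was at 5.44 and 5.98 in shEV and 1.01 and 0.736 in shRybp (-2.69, SE 0.24, edgeR adjusted p = 3.16e-08). It was at 0.467 and 0.672 CPM in shWdr5, a comparison that shares the shEV libraries. In WT ESCs it was at 8.79 and 7.86 and with the TF-AA mutation at 0.895 and 0.587 (-3.47, SE 0.27, edgeR adjusted p = 8.71e-10). No library with the perturbation overlapped its controls in these comparisons.

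Genes were also divided by other peaks at their start. After knockout, 45.1% of 636 tested member genes with Rybp-/- H3K27ac at the start were higher, against 33.9% of 1917 without it. The median log2 fold change was 0.35 in both, and the count filter was passed by 636 of 744 and 1917 of 2910. With a Rybp+/+ WDR5 peak, 32.7% of 1114 were higher and 14.9% lower, and without it 39.8% of 1439 were higher and 8.27% lower. After knockdown the same split gave 49.9% and 49.4% higher. Along the RING1B quintiles, the share that was higher went from 33.0% to 40.9% after knockout and from 38.8% to 55.6% after knockdown, while the share that was lower went from 14.5% to 7.13% and from 11.9% to 2.84%.

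Depletion of WDR5 moved member genes in both directions. Of 2185 tested, 736 were higher (33.7%), against 31.5% of all genes, and 644 were lower (29.5%), against 31.5%. The median log2 fold change was 0.03, and 63% of all genes were called in either direction. Among the 1690 that passed the filter in both groups, 32.8% were higher and 30.9% lower. At 1 to 10 CPM, 33.2% of member genes and 25.2% of others were higher and 32.4% and 28.6% lower, and at 10 to 100 CPM 45.5% and 34.1% were higher and 34.3% and 34.6% lower. Fold changes were wide, with 500 member genes (22.9%) more than 2-fold higher and 348 (15.9%) more than 2-fold lower, against 10.9% and 7.69% of all genes tested. In genes with neither RING1B nor H3K27ac, the shares were 12.0% and 18.2%. Of the member genes tested, 253 passed the filter through shWdr5 alone, which gave 181 of the higher calls. Another 187 passed through shEV alone, which gave 121 of the lower calls. Axon guidance genes rose in 12 of 13 and fell in 1, Wnt ligands rose in 3 of 6 and fell in 1, and bHLH genes rose in 5 of 8. Sox genes rose in 2 of 4 and fell in 2, 3 of 5 Fgf ligands fell, and both CDK inhibitors fell. Other homeobox genes rose in 6 of 27 and fell in 9. The zinc finger and nuclear receptor group rose in 2 of 10 and fell in 5, and the BMP and TGF-beta group rose in 3 of 9 and fell in 3. The largest rises were those of Mosc1, Ebf2, Gfra3, Cacna1e and Vwce. Cacna1e, a neuronal calcium channel, went from 0.514 and 0.405 to 14.0 and 12.8 CPM. Mosc1 had 1 and 0 counts in shEV, so no fold is given. The largest falls were those of Pax8, Hapln4, Fam184b, Tal1 and Ankrd34a. Pax8, a thyroid and kidney factor, went from 4.54 and 4.00 to 0.327 and 0.192 CPM, and passed the filter through shEV alone. Tal1, a blood-forming bHLH factor, went from 2.90 and 2.38 to 0.28 and 0.24 CPM, likewise through shEV alone. With a WDR5 peak in Rybp+/+, 35.5% of 1025 tested member genes were higher and 30.1% lower, and without one 32.1% of 1160 and 28.9%. ESC markers summed to 8303 and 8539 CPM in shEV and 6898 and 6968 in shWdr5 (6 of 9 lower, 2 higher), and primitive endoderm markers to 243 and 229, and 452 and 458 (6 of 8 higher, 1 lower). Two-cell-like markers went from 40.7 and 38.4 to 15.4 and 14.5 CPM (all 3 tested lower). Trophectoderm markers went from 53.5 and 58.4 to 68.6 and 73.7 CPM (3 of 6 tested higher, 1 lower). Fibroblast markers went from 145 and 146 to 182 and 180 CPM (2 of 4 tested higher, 1 lower). Their part in the result was not tested.

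In cells with the TF-AA mutation, 606 of 1931 tested member genes were higher (31.4%), against 14.4% of all genes, and 164 were lower (8.49%), against 16.1%. Of all genes, 30.5% were called in either direction. The filter was passed through the TF-AA libraries alone by 354, which gave 193 of the higher calls. Among the 1462 that passed in both groups, 28.2% were higher and 10.2% lower. At 1 to 10 CPM, 34.4% of member genes and 15.8% of others were higher and 6.99% and 9.19% lower, and at 10 to 100 CPM 19.2% and 21.5% were lower. The lower count was 104 under DESeq2, 108 without TF-AA replicate 1 and 103 without TF-AA replicate 2. Hox genes rose in 2 of 4 and Wnt ligands in 4 of 4. Other homeobox genes rose in 3 of 11 and fell in 1, bHLH genes rose in 1 of 5 and fell in 1, and 2 of 7 BMP and TGF-beta genes fell. Fam190a was at 0 counts in both WT libraries and 2.09 and 3.26 CPM with the mutation. It passed the filter through the TF-AA libraries alone, so no fold is given. Col4a4, a basement membrane collagen, went from 0.239 and 0.247 to 6.11 and 7.21 CPM, and passed the filter through the TF-AA libraries alone. Upb1, an enzyme of pyrimidine breakdown, had 0 and 2 counts in WT, and Cacna1s and Spesp1 were the other 2 of the largest rises. Vax2, a ventral eye factor, went from 5.87 and 4.35 to 0.745 and 0.48 CPM. Pax6, Vldlr and the lincRNA D930019O06Rik were also among the largest falls. Pax6, an eye and neural factor, also starts in a peak with H3K27ac, and DESeq2 gave no call for it. Two-cell-like markers summed to 0.804 and 0.0971 CPM in WT and 46.0 and 45.5 with the mutation. Primitive endoderm markers went from 202 and 192 to 333 and 327 CPM (4 of 6 tested higher), trophectoderm markers from 48.2 and 45.4 to 64.6 and 64.1 (3 of 4 higher) and fibroblast markers from 70.2 and 66.9 to 75.3 and 73.6 (3 of 4 higher, 1 lower), with Col3a1, Lum and Dcn at 0. Their part in the result was not tested.

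RYBP phase disruption was compared with WT RYBP overexpression in floxed cells treated with 4-OHT. Rybp itself was at 749 and 753 CPM with WT RYBP and 662 and 626 with the deletion form. Of 2134 tested member genes, 496 were higher (23.2%), against 16.1% of all genes, and 210 were lower (9.84%), against 17%. Of all genes, 33% were called in either direction. The filter was passed through the phase disruption libraries alone by 264, which gave 114 of the higher calls. Among the 1733 that passed in both groups, 22.0% were higher and 11.1% lower. At 1 to 10 CPM, 23.9% of member genes and 17.6% of others were higher and 5.83% and 6.58% lower, and at 10 to 100 CPM 24.8% and 18.5% were lower, so the gap in lower calls was small or turned between genes of like level. The number of higher genes was 267 under DESeq2, 316 with no filter and 322 without RYBP phase disruption replicate 2, and the number of lower genes 1.2e+02 (rounded) under DESeq2. Hox genes rose in 4 of 8 and fell in 1, with a median log2 fold change of 0.90. Other homeobox genes rose in 7 of 20 and fell in 1, bHLH genes rose in 1 of 9 and fell in 2, and 1 of 6 Fgf ligands fell. The BMP and TGF-beta group rose in 2 of 8 and fell in 2, as did T-box and Gata genes. The zinc finger and nuclear receptor group rose in 3 of 16 and fell in 3, and 2 of 3 Hedgehog and Notch genes fell. Tmem132c, at chr5:127721526-127724567, went from 3.84 and 2.87 to 25.1 and 31.1 CPM (3.06, SE 0.16, edgeR adjusted p = 6.3e-17). It was also among the 5 largest rises after knockout, at 0.687 and 0.422 CPM in Rybp+/+ and 4.63 and 4.81 in Rybp-/- (3.09, SE 0.22, edgeR adjusted p = 1.72e-13). Lmx1a, a midbrain dopaminergic factor, went from 0.692 and 0.811 to 6.52 and 5.85 CPM (3.03, SE 0.31, edgeR adjusted p = 1.72e-09). Tacr3, Glt25d2 and the netrin receptor gene Dcc completed the largest rises. Pou4f2, a retinal ganglion cell factor, went from 5.85 and 4.99 to 0.747 and 0.538 CPM. Fgf5, a marker of primed epiblast, went from 5.66 and 5.12 to 0.543 and 0.807 CPM. Egr4, Neurod1 and Grm6 were the others. Fibroblast markers summed to 941 and 939 CPM with WT RYBP and 713 and 765 with the deletion form, and two-cell-like markers to 45.1 and 42.6, and 419 and 403. Trophectoderm markers went from 270 and 278 to 337 and 358 CPM (5 of 6 tested higher). Primitive endoderm markers, 6 of 8 of them member genes, went from 289 and 285 to 321 and 324 CPM (3 of 7 tested higher). Their part in the result was not tested.

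Induction of RYBP in J1 cells moved few genes. Of 1955 tested member genes, 64 were higher (3.27%), against 3.63% of all genes, and 86 were lower (4.40%), against 2.39%. Of all genes, 6.02% were called in either direction. The median log2 fold change was -0.11. The lower count was 54 under DESeq2. Among the 1553 that passed the filter in both groups, 3.86% were higher and 5.22% lower. At 1 to 10 CPM, 3.42% of member genes and 2.20% of others were higher and 4.59% and 1.54% lower, and at 10 to 100 CPM 8.02% and 4.08% were higher and 11.1% and 2.17% lower. These counts rested on single libraries, since the higher count was 38 without Tet.RYBP DOX replicate 1 and 40 without Tet.RYBP DOX replicate 2, and the lower count 56 and 55. Rapgef4, a cAMP-activated exchange factor, rose from 2.66 and 2.78 to 10.2 and 9.61 CPM (1.86, SE 0.20, edgeR adjusted p = 7.18e-08). Duoxa1, a maturation factor of dual oxidase, went from 0.0831 and 0.116 to 2.18 and 2.41 CPM, and passed the filter through the DOX libraries alone. The call of Rapgef4 held without any single library. Bmpr1b, Scnn1a and Spag16 were the other large rises and Foxd1, Il1rap, Agap2, Jph3 and Adcyap1r1 the largest falls, and each of these 8 calls was lost without at least 1 library. Of the BMP and TGF-beta member genes, 3 of 8 rose and 1 fell. Of the other homeobox genes 1 of 16 fell, of the Fgf ligands 2 of 5 fell, and of the Hedgehog and Notch genes 2 of 4 rose. Two-cell-like markers went from 0.390 and 0.816 to 4.35 and 5.22 CPM (2 of 3 tested higher). Fibroblast markers went from 109 and 97.3 to 80.6 and 73.3 CPM (1 of 3 tested lower). Their part in the result was not tested.

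In the libraries labelled rTRS DOX, 744 of 2478 tested member genes were higher (30.0%), against 23% of all genes, and 320 were lower (12.9%), against 20.4%. Genes with RING1B and H3K27ac were higher in 29.6%, close to the members, and lower in 21.0%. Genes with neither were higher in 26.0% and lower in 15.7%. Of all genes, 43.4% were called in either direction. The filter was passed through the DOX libraries alone by 217, which gave 101 of the higher calls. Among the 2068 that passed in both groups, 31.1% were higher and 14.3% lower. At 1 to 10 CPM, 33.8% of member genes and 20.2% of others were higher and 14.35% and 17.6% lower, and at 10 to 100 CPM 21.8% and 22.7% were lower. Genes of BMP and TGF-beta signalling rose in 6 of 8 and fell in 1, and Wnt ligands rose in 5 of 8. Other homeobox genes rose in 6 of 19 and fell in 5, 1 of 5 Hox genes fell, Sox genes rose in 1 of 4 and fell in 1, and bHLH genes rose in 1 of 8 and fell in 3. Evx1, a primitive streak homeobox factor, went from 0.137 and 0.0372 to 5.85 and 5.93 CPM, and passed the filter through the DOX libraries alone. Fgf8, also of the primitive streak, went from 0.391 and 0.149 to 12.7 and 9.17 CPM. Pvalb and Thsd7a were also among the largest rises. Pou4f2 fell here, from 7.87 and 8.66 to 0.616 and 1.10 CPM (-3.27, SE 0.25, edgeR adjusted p = 4.24e-07). Enox1 fell from 42.4 and 44.7 to 7.22 and 7.25 CPM (-2.59, SE 0.10, edgeR adjusted p = 1.11e-09), and Nkx6-3, Insc and Lonrf2 were the other large falls. With STAT3 at DOX+ in their interval, 30.4% of 2340 tested member genes were higher, against 23.9% of 138 without. ESC markers summed to 6521 and 6256 CPM without and 4066 and 3866 with DOX, with 7 of 9 lower. Trophectoderm markers went from 155 and 143 to 993 and 931 CPM, with all 6 tested higher, 2 of the list being member genes. Primitive endoderm markers, 6 of 8 of them member genes, went from 248 and 248 to 400.2 and 394 CPM (3 of 8 higher, 1 lower), and two-cell-like markers from 23.6 and 25.4 to 11.7 and 11.2 (3 of 4 lower). Their part in the result was not tested.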

How the data were processed

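RNA-seq, and ChIP-seq of H3K4me3, H3K27ac, RING1B, WDR5 and STAT3, had been profiled in mouse ESCs. The deposited gene tables hold whole-number counts, which the authors made with Trim Galore, STAR and HTSeq on mm9, and the strand setting is not given in the sources used here, so reads of overlapping genes cannot be told apart. The deposited peak lists hold fold enrichment over control, which the authors called with MACS2 after Bowtie2 alignment to mm9, with replicates merged where there were any. The lists reach down to a -log10 q of 1.30 (narrow) and 1.01 (broad), and the histone and WDR5 lists are thus looser than the limit the methods state for them. They also hold the -log10 q of each peak as deposited by the authors, which was used for the stricter lists, and a -log10 p column that was not used. No other per-sample columns were left out (0).

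Intervals were compared at 1 bp of overlap, and start sites came from the GENCODE annotation of mm9. Shares have 95% Wilson intervals and differences Newcombe intervals, which cover counting error only. Each RNA comparison was fitted on its own table of 2 against 2 libraries with edgeR 4.0.16 (TMM, filterByExpr, quasi-likelihood test, Benjamini-Hochberg adjustment over all genes), and a gene was called at an adjusted p below 0.05. CPM are the counts scaled by library, and RPKM those divided by gene length also. Rows that name no gene took 0 to 58.5% of a library's counts and stayed out of library sizes and tests. Replicates differed beyond sampling noise in each group.

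Named genes were, for each gene list, up to 4 member genes with the highest RING1B fold, and for each comparison the 5 largest rises and 5 largest falls among called member genes with a mean of at least 1 CPM. Named intervals were the 5 with the most RING1B, the 5 longest and the 5 strongest without an Rybp-/- H3K4me3 peak. Genes at named intervals are given by CPM alone. Some genes that these rules name are not reported here. The members and lists were chosen with earlier results of these data known, so no count over a list is independent evidence. Alternatives were DESeq2 1.42.0, RLE normalization, no filter on counts, a replicate block, leaving out each library, stricter peaks, a larger overlap and a wider start-site window. Scripts were tested on simulated data. R 4.3.3, limma 3.58.1, Python 3.11.15, numpy 2.4.6, pandas 2.3.3, scipy 1.17.1 and matplotlib 3.10.9 were used.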

Additional observations from a re-analysis of the deposited data

Results flagged for a closer look

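For 5 named member genes, every Rybp-/- library moved against Rybp+/+ in one direction and every shRybp library moved against shEV in the other. The difference between the knockout in R7.15 and the knockdown in R1 was not tested. The cell line, the drug and the depth of Rybp loss differ between these comparisons as well, and their part cannot be told apart. Esrrb, a pluripotency factor, had log2 fold changes of 0.09 after knockout and -0.42 after knockdown. Its knockout call was among those lost when a single library was left out. Ptch1, the Hedgehog receptor, had -0.57 and 0.53. Lef1, the Wnt effector, had -1.75 and 0.67, and its levels in the knockdown were 9.30 and 10.1 CPM in shEV and 16.2 and 14.7 in shRybp. Tmem132d, a membrane protein, had 1.97 and -1.997, with 0.356 and 0.211 CPM in Rybp+/+ and 1.18 and 1.04 in Rybp-/-. Cdk5r2, an activator of CDK5 in neurons, had -1.90 and 0.34, with 18.0 and 18.3 CPM in shEV and 22.5 and 23.2 in shRybp. Groups of 2 libraries are too small for a check on single outlying samples.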

How the results depend on the processing

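The number of members was 5259 with stricter peaks (-log10 q of at least 5), 5576 when RING1B had to cover 50% of the interval, 6639 when H3K27ac within 1 kb also removed an interval, 7302 with the DOX- RING1B list and 5976 with the Rybp-/- histone lists. With stricter peaks the members' shares were 98.7% for Rybp-/- H3K4me3, 20.3% and 24.2% for WDR5 in Rybp+/+ and Rybp-/-, 9.75% for Rybp-/- H3K27ac, 90.4%, 95.3% and 93.0% for RING1B after shStat3, at DOX- and at DOX+, and 2.64% and 89.5% for STAT3 at DOX- and DOX+. When a peak had to cover 50% of the interval, the shares were 96.7%, 1.09%, 2.17% and 1.67% for H3K4me3, WDR5 in Rybp+/+ and Rybp-/- and H3K27ac. They were 82.2% and 89.6% for RING1B after shStat3 and at DOX-, and 0.0538% and 60.5% for STAT3 at DOX- and DOX+.

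After knockout, knockdown, Wdr5 knockdown and in the libraries labelled rTRS DOX, both counts of called member genes stayed within 1.5 times under each alternative. The TF-AA lower count was 104 under DESeq2 and 103 to 162 without single libraries. For RYBP phase disruption the higher count was 316 with no filter, 267 under DESeq2 and 322 to 376 without single libraries, and the lower count was 1.2e+02 (rounded) under DESeq2. For RYBP induction the lower count was 54 under DESeq2, and without single libraries the higher count was 38 to 76 and the lower 55 to 109. The Wdr5 fold change after RYBP induction was -0.0341 to 0.0111 without single libraries, and its sign turned without vehicle replicate 2 (0.0111) and DOX replicate 2 (0.0049). The cause of these shifts was not tested.

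With the replicate number as a block, the higher and lower counts were 939 and 291 after knockout, 1307 and 182 after knockdown, 744 and 655 for shWdr5, 644 and 180 for TF-AA, 509 and 224 for phase disruption, 75 and 110 for RYBP induction, and 798 and 349 for rTRS. Same-numbered libraries correlated at -6.2e-05 to 0.201, over 2 pairs each. Whether they share more than a number cannot be told from so few pairs. A setting chosen after seeing the data left out genes that also start in an H3K27ac peak, and gave 863 and 224 after knockout and 1166 and 134 after knockdown. Over 139 pairs of a named gene and a comparison, 1048 of 1111 alternative values kept their direction and side of the threshold, 58 lost the call, 3 gained it and 2 turned.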
